A study of Mus musculus with 6 samples.

Results

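S100 genes encode small calcium-binding proteins, and 8 of them that lie on mouse chromosome 3 were followed in KP2 cells, a mouse pancreatic cancer line: S100a1, S100a4, S100a6, S100a10, S100a11, S100a13, S100a14 and S100a16. They were taken by gene symbol, as 8 of the 41388 genes counted, and all 8 were among the 12339 genes with enough reads to be tested. KP2 was derived from a KPC mouse, a model of pancreatic cancer, on the C57BL/6J strain. There were 3 groups of 2 libraries: wild-type cells, cells in which Irak4 was knocked out with lentiviral CRISPR guides (KO), and knockout cells that carry a rescue. All were grown in the same serum-containing medium. The labels name neither the rescue construct nor a control vector for wild type, and they do not say whether the KO is 1 clone or a pool. Nor do they call the replicates separate cultures. The p-values therefore measure how these libraries vary, and that variation may be technical.

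S100 proteins carry EF-hands, loops that bind calcium. Binding opens a groove through which the S100 dimer takes hold of partners such as annexins, myosins and other cytoskeletal proteins. Several S100 proteins also leave the cell and bind receptors, among them RAGE (gene Ager) and TLR4, the latter of which signals through MYD88 and IRAK4. S100A4, S100A6 and S100A11 are well known as abundant proteins of pancreatic ductal tumours.

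Depth ranged from 7605328 to 11505983 counts per library. Libraries of 1 group varied by 5.09% (wild type), 6.08% (KO) and 10.5% (rescue), as edgeR's biological coefficient of variation. Irak4 itself had 37.9 and 37.6 normalised CPM (counts scaled to a common library size) in wild-type libraries, 20.4 and 21.8 in KO libraries, and 492 and 211 in rescue libraries. Both KO libraries lay below both wild-type libraries, but the log2 fold change of -0.84 (SE 0.33) did not pass the test (adjusted p = 0.057). That test takes its spread from all groups together, including the rescue libraries, which differed most from each other. The Irak4 mRNA is therefore a limited check of the label. Of the ductal markers, Epcam was under 1 CPM in every library, and the keratin genes Krt8, Krt18 and Krt19 had at least 1093 CPM in each library. Among 9 immune markers, Cd14 and Ly6g were the exceptions to levels under 1 CPM, and the defining gene Ptprc had no read outside the first rescue library. Cd14 ran from 38.9 to 77.8 CPM over the libraries, and Ly6g from 0.34 to 1.78 CPM. The 8 fibroblast markers summed to 13.2 to 13.5 CPM in wild type, 10.2 to 15 in the KO and 18.8 to 24 in the rescue, with Dcn and Lum at 0 throughout. The endothelial marker Cdh5 went from 2.97 and 3.62 CPM in wild-type libraries to 15.9 and 30.5 in KO libraries, while Kdr went from 1.54 and 1.66 to 0.084 and 0.11 CPM and Pecam1 stayed under 1 CPM. Krt18 had 2325 ± 63.5 CPM in wild type, 1257 ± 44.6 in KO libraries and 1896 ± 186 in rescue libraries (SD, n = 2). The part of these markers in the S100 results was not tested.

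The members form 2 groups on chromosome 3 (GRCm38, coordinates from the deposited tables). The first runs from S100a1 (90511034 to 90514392, minus strand) through S100a13 (90514435 to 90524581), S100a14 (90526849 to 90528837) and S100a16 (90537254 to 90543151) to S100a4 (90603770 to 90606045) and S100a6 (90612894 to 90614414), all of these 5 on the plus strand. S100a11 (93520488 to 93526287) and S100a10 (93555080 to 93564643), both on the plus strand, follow 2.82 Mb beyond S100a9. None of the members shares an exonic base with another gene of the tables. S100a3 ends 1067 bases before S100a4, and S100a4 is followed by S100a5 after 2477 bases and then by S100a6.

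RefSeq promoter windows on GRCm38.p6, from 250 bases before a gene's start to 50 after it, were matched for 6 of the 8 members. The stretches shown are the one before S100a4, the member with the opposite change in the KO, the one before S100a11, whose window held matches to 2 of the motifs searched, and the short gap between S100a1 and S100a13, which are transcribed away from each other. Capitals mark TATAAA in S100a4. In S100a11 they mark the AP-1 letters TGANTCA at both places and CACGTG, which holds the hypoxia response core ACGTG on both strands. The S100a4 stretch is chr3:90603520-90603769, the S100a11 stretch chr3:93520246-93520487 and the gap chr3:90514393-90514434, each on the plus strand.
S100a4: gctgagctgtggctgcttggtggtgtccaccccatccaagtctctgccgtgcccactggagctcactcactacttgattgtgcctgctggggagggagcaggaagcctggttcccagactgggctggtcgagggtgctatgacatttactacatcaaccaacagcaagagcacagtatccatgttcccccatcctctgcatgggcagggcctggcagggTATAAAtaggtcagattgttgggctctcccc
S100a11: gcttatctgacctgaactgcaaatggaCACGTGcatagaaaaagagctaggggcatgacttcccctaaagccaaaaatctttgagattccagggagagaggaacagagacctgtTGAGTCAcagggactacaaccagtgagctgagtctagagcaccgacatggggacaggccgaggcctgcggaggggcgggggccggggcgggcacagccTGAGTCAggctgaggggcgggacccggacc
S100a1-S100a13 gap: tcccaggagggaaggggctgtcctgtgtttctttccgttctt

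The gap between S100a1 and S100a13 is 42 bases long, so the windows of these genes overlap. TATAAA lay 31 bases before the start of S100a4 and in no other member's window. Of 32817 windows of 300 bases, 13.6% held it on either strand. The AP-1 letters lay 136 and 38 bases before the start of S100a11 and once, 192 bases before the start, in the second window of S100a16. They were in 7.81% of all windows, and the hypoxia core was in 19.6%. The S100a6 window held that core just after the start. None of the member windows held the TEAD letters GGAATG (14.7% of windows), an NF-kB motif (4.50%) or a CArG box (1.63%). These are matches of letters, not measured binding.

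Per length, S100a6 was the highest member in wild type, at 3199 and 3287 RPKM (the CPM per kilobase of gene length). S100a6 encodes calcyclin, a partner of CACYBP and of annexins. S100a11 followed at 881 and 931 RPKM, S100a4 at 747 and 754, and S100a10 at 333 and 351. S100a16 (113 and 105 RPKM) and S100a1 (106 in both libraries) did not separate, S100a13 was lower at 73.2 and 69.8, and S100a14 stood at 2.67 and 4.29. The order was not the same in the KO. There S100a4, at 1138 and 1215 RPKM, stood above S100a11, at 635 and 795, and it did so in the rescue too, at 906 and 910 against 796 and 744. S100a1 was above S100a16 in each KO library, at 77.1 and 91.9 against 71.2 and 84.7 RPKM, though these ranges overlap. It was above it without overlap in the rescue, at 81.3 and 76.2 against 68.2 and 63.6 RPKM.

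**Figure D1:**
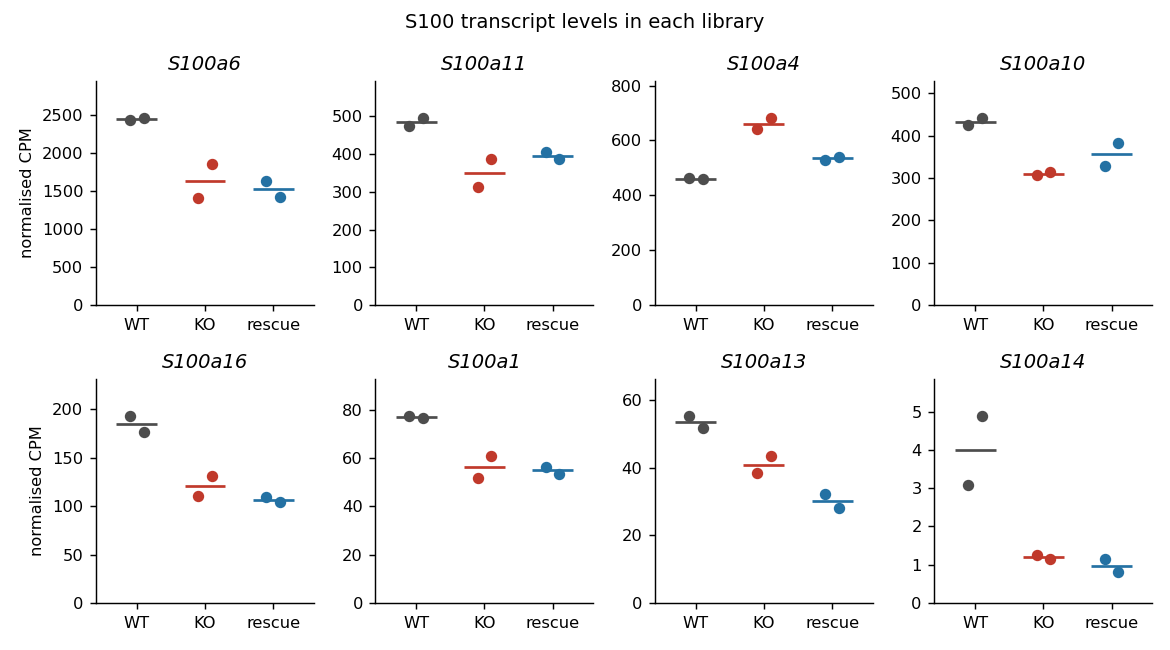
Normalised CPM (y axis, from 0) of each member in each library (points), with the group mean as a line, for wild type (WT), KO and rescue. S100a4 is highest in the KO, whereas the other 7 members are highest in wild type.

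In the KO, 7 of the 8 S100 transcripts fell and 1, S100a4, rose. The decreases ran from 1.31-fold for S100a13 to 3.32-fold for S100a14, and 6 of the 7 lay between 1.31-fold and 1.53-fold. Over all genes tested 46.8% were called in this comparison, 23.2% higher and 23.5% lower, so that a call alone is common. The median log2 fold change of the members was -0.48, against 0.01 over all genes.

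S100a4 encodes a protein that binds non-muscle myosin IIA and is tied to cell motility and to the mesenchymal state. Its level was 462 and 459 CPM in wild-type libraries, 642 and 680 in KO libraries, and 528 and 541 in rescue libraries. The KO libraries were the highest and the wild-type libraries the lowest, and no groups overlapped. The rise in the KO was 1.44-fold, a log2 fold change of 0.52 (SE 0.08, adjusted p = 3.3e-04), and 85% of the tested genes had a lower fold change. It was between 0.48 and 0.55 in every alternative fit and was called in each.

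S100a6, the member nearest to S100a4 on the chromosome, went the other way. It had 2425 and 2451 CPM in wild type against 1401 and 1855 in the KO, a fall by 0.58 on the log2 scale (SE 0.13, adjusted p = 0.0028). The KO libraries differed from each other more than the wild-type libraries did. Set against each other in 1 library, which no scaling affects, S100a4 had 19.1 and 18.7 counts per 100 counts of S100a6 in wild type. KO libraries had ratios of 45.8 and 36.7, and rescue libraries 32.4 and 38.2. S100a6 held 58.9% and 59.0% of the members' summed counts in wild-type libraries and 48.9% and 53.4% in KO libraries. The members' summed level was 4117 and 4154 CPM in wild-type libraries and 2863 and 3474 in KO libraries.

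S100a10 and S100a11 encode partners of annexins: S100A10 forms a tetramer with annexin A2 at the plasma membrane and has lost the ability to bind calcium, and S100A11 binds annexin A1. S100a10 stood at 426 and 441 CPM in wild-type libraries and at 306 and 315 in KO libraries, a log2 fold change of -0.48 (SE 0.09, adjusted p = 0.0012). S100a11 had 475 and 494 CPM in wild-type libraries and 312 and 387 in KO libraries, with a change of -0.47 (SE 0.10, adjusted p = 0.0030). Wild-type and KO libraries did not overlap for either gene, nor for any other member. The share of all tested genes without such overlap was not counted, so the lack of overlap cannot be read as particular to the members. Atp8b2 and Tpm3, tested genes near the members that were not called in the KO, had no such overlap either.

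S100a1 and S100a13 are the divergent neighbours. S100A1 is best known from heart muscle, where it tunes calcium release, and S100A13 takes part in the release of FGF1, a growth factor without a signal peptide. S100a1 had 77.3 and 76.5 CPM in wild-type libraries, 51.5 and 60.9 in KO libraries (log2 fold change -0.46, SE 0.10, adjusted p = 0.0026). S100a13 had 55.2 and 51.8 CPM in wild-type libraries and 38.4 and 43.3 in KO libraries (-0.39, SE 0.11, adjusted p = 0.0095). The fall of S100a13 was the smallest among the members and lost its call with wild-type library 1 left out (adjusted p = 0.087), with KO library 1 left out (adjusted p = 0.100) and in DESeq2 (adjusted p = 0.053). The 2 genes kept a similar ratio, at 71.4 and 67.7 counts of S100a13 per 100 of S100a1 in wild-type libraries and 74.5 and 71.2 in KO libraries.

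S100a14 and S100a16 lie next to each other. S100A14 is found mainly in epithelia, and S100A16 is widely expressed. S100a14 was scarce, with 26 and 50 counts in wild-type libraries and 15 and 10 in KO libraries, or 3.09 and 4.89 against 1.25 and 1.15 CPM. Its fall was the largest among the members and the least precise, at -1.73 on the log2 scale (SE 0.36, adjusted p = 0.0021). It lost its call without the second wild-type library (adjusted p = 0.050). S100a16 had 193 and 177 CPM in wild-type libraries and 111 and 131 in KO libraries, a change of -0.62 (SE 0.10, adjusted p = 3.6e-04).

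**Figure D2:**
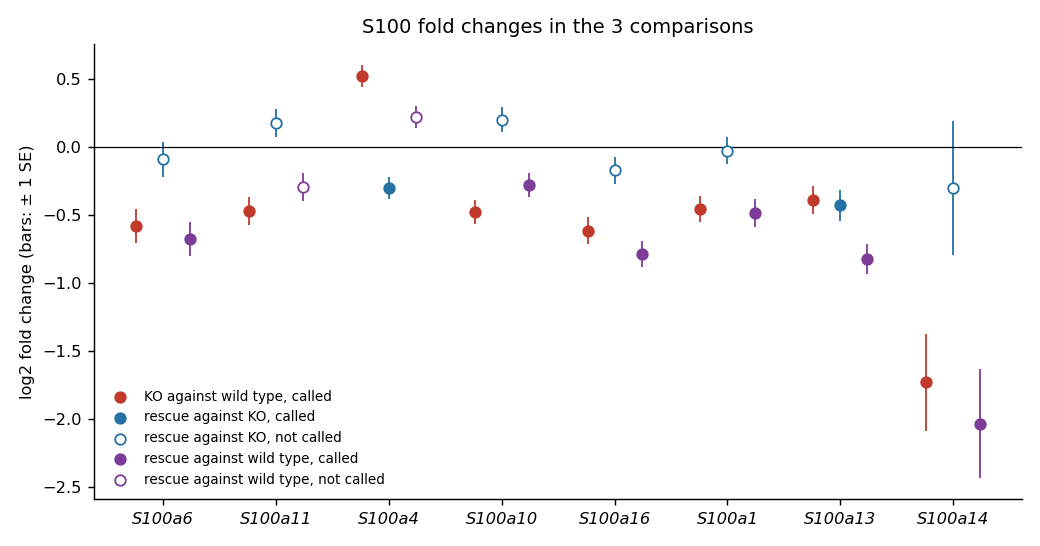
Log2 fold change (y axis, bars ± 1 SE) of each member in the KO against wild type, the rescue against the KO and the rescue against wild type; filled points were called. S100a4 is the member above 0 in the KO, and S100a13 is the member with 3 called decreases.

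The members' changes lay outside the middle of the transcriptome but mostly short of its extremes. The quartiles of the log2 fold change over all tested genes in the KO were -0.35 and 0.33, and every member lay outside them. In the KO 5% of tested genes had a log2 fold change under -1.40 and 5% one over 0.91, and S100a14 alone among the members lay outside these limits. Chromosome 3 as a whole leaned lower in the KO, with 213 of its 625 tested genes called lower, 83 called higher and a median of -0.13. The part of this lean in the members' changes was not tested.

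**Figure D3:**
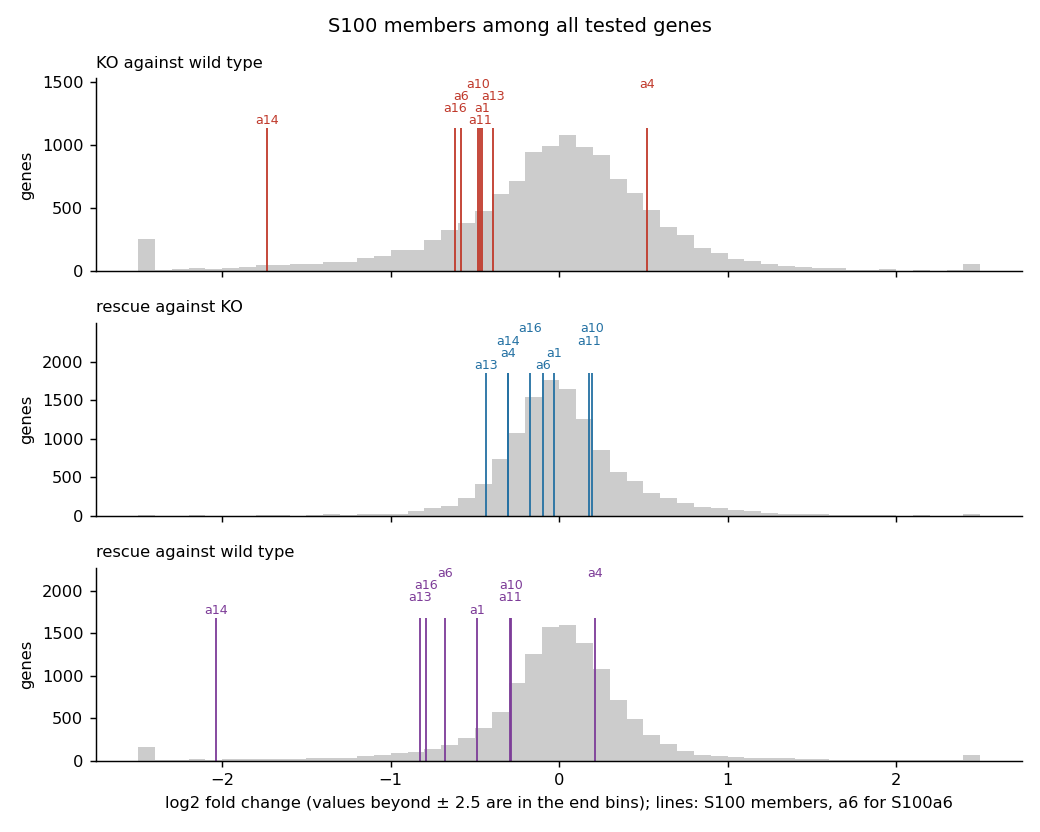
Number of tested genes (y axis) by log2 fold change (x axis) in each comparison, with the members as lines labelled by the end of their names. In the KO the lines of 7 members lie left of 0 and that of S100a4 lies right of it.

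The genes around the members moved in both directions, more of them lower than higher in the KO. Of 32 other tested genes that start within 1 Mb of a member, 10 were lower and 4 higher in the KO, with a median log2 fold change of -0.09. Without the S100 genes among them it was 8 lower and 4 higher of 30, and a median of -0.03. Over all genes tested 23.5% were called lower and 23.2% higher, and chromosome 3 had 213 lower and 83 higher of 625. Whether the neighbours share the lean of the chromosome was not tested. Chtop, a chromatin-associated RNA-binding protein gene and the tested gene next to S100a1, was not called (0.19, SE 0.10, adjusted p = 0.138). Gm4202, the tested gene before S100a11, was not called (-0.11, adjusted p = 0.355). Them4, the tested gene beyond S100a10, was lower (-0.71, SE 0.18, adjusted p = 0.0069). Kcnn3, a potassium channel gene, had the smallest adjusted p, falling from 43.4 ± 4.23 to 0.27 ± 0.21 CPM (SD, n = 2). Only its wild-type libraries let it pass the read filter, so its call could only be lower. Adar, which edits double-stranded RNA, rose from 122.0 ± 0.37 to 180.2 ± 5.48 CPM.

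**Figure D4:**
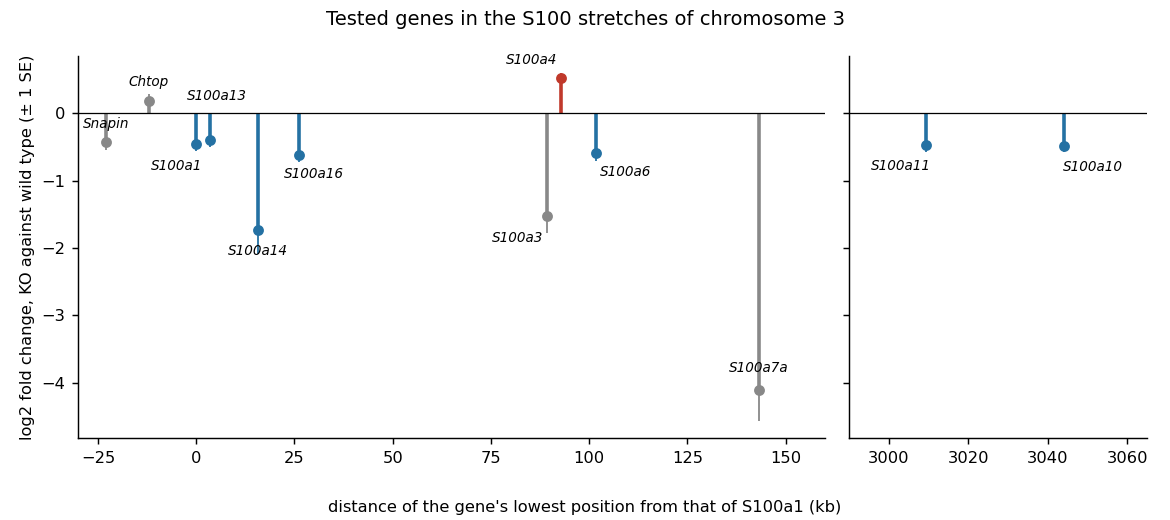
Log2 fold change in the KO against wild type (y axis, bars ± 1 SE) of tested genes by distance from S100a1 in kb (x axis, cut between the panels); members are coloured, red where higher, and other genes are grey. S100a4 points up between S100a3 and S100a6, which point down.

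Of 8 further S100 genes listed for comparison, S100a3 and S100a7a had enough reads to be tested, and both were low. S100a3, which is best known from hair cuticle and lies directly before S100a4, had 9.50 and 7.62 CPM in wild-type libraries, 3.09 and 2.75 in KO libraries and 5.07 and 7.32 in rescue libraries. It fell by 1.53 in the KO (SE 0.25, adjusted p = 5.0e-04) and rose by 1.07 in the rescue over the KO (SE 0.27, adjusted p = 0.025). S100a7a, the mouse relative of psoriasin, had 36 and 46 counts in wild-type libraries, 4 and 1 in KO libraries and 5 and 7 in rescue libraries (KO log2 fold change -4.11, SE 0.46, adjusted p = 4.1e-05). Only its wild-type libraries let it pass the read filter, so a call against wild type could only be lower. S100a8 and S100a9, the abundant S100 genes of neutrophils, had 3 counts and none in all libraries together. S100a2 and S100a5 had 3 counts each. None of the 6 fused-type S100 genes in the tables, such as Flg2 and Rptn of the skin barrier, passed the filter.

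In the rescue against the KO, S100a4 and S100a13 were lower and the other 6 members were not called. Over all genes 14.2% were called, 8.35% higher and 5.88% lower, and the members' median was -0.13 against 0.00 over all genes. These libraries include the KO libraries of the first comparison, so the 2 comparisons are not independent. S100a4 fell by 0.31 on the log2 scale (SE 0.08, adjusted p = 0.029) to a level between those of the KO and wild type. S100a13 fell by 0.43 (SE 0.11, adjusted p = 0.028), to 32.2 and 28.1 CPM, further from wild type. Both calls were near the threshold. With either wild-type library left out the adjusted p was 0.069 for S100a4 and 0.057 for S100a13. Leaving out KO library 1 gave 0.086 for S100a4 and 0.060 for S100a13 as adjusted p, and leaving out KO library 2 gave 0.189 and 0.190. S100a13 also lost its call without the second rescue library (adjusted p = 0.148), and the call of S100a4 was kept without either rescue library (adjusted p = 0.027 and 0.043). A fit to the KO and rescue libraries alone called neither gene (adjusted p = 0.068 for S100a4 and 0.059 for S100a13), and DESeq2 called S100a4 (adjusted p = 0.009) but not S100a13 (adjusted p = 0.086). Without the second KO library 203 genes in all were called in this comparison, against 1756 with every library.

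The remaining members divided by direction without passing the test. S100a10 had 329 and 383 CPM in the rescue and S100a11 had 404 and 385, with log2 fold changes over the KO of 0.20 (SE 0.09, adjusted p = 0.168) and 0.18 (SE 0.10, adjusted p = 0.273). The rescue libraries of S100a10 lay above both KO libraries, and those of S100a11 overlapped the KO. Without the first rescue library, the one with the higher Irak4 level, S100a10 was called higher at 0.30 (adjusted p = 0.018), and without the second it was at 0.08. S100a11 was at 0.03 with KO library 1 left out and 0.34 with KO library 2 left out, and S100a16 at -0.29 and -0.06. S100a6 (1631 and 1417 CPM), S100a1 (56.1 and 53.5) and S100a16 (110 and 104) had changes of -0.09, -0.03 and -0.17 with adjusted p of 0.654, 0.874 and 0.264. The sign for S100a1 and S100a6 turned positive without the second KO library and without the second rescue library. S100a14 had 9 and 6 counts in the rescue, too few to place it against the KO (-0.31, SE 0.49, adjusted p = 0.719).

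Against wild type, 6 members were lower in the rescue, and S100a4 and S100a11 were not called. Each of these libraries was also used in an earlier comparison, so this one is not independent of them. Over all genes 22.2% were called, 10.2% higher and 12.0% lower, and the members' median was -0.58 against 0.01. S100a14 (-2.04, SE 0.40, adjusted p = 0.0040), S100a13 (-0.82, SE 0.11, adjusted p = 3.5e-04) and S100a16 (-0.79, SE 0.10, adjusted p = 2.0e-04) stood furthest below wild type. S100a6 was at -0.68 (SE 0.13, adjusted p = 0.0029) and S100a1 at -0.49 (SE 0.10, adjusted p = 0.0050). S100a10, at -0.28 (SE 0.09), was called at an adjusted p of 0.043 and lost its call without any 1 of the libraries other than the second rescue library (adjusted p from 0.067 to 0.221). S100a11 had nearly the same change (-0.29, SE 0.10, adjusted p = 0.061) and was called without either KO library and without the first rescue library (adjusted p of 0.040, 0.040 and 0.034). The call of S100a1 was lost without the first wild-type library (adjusted p = 0.051) and that of S100a14 without the second (adjusted p = 0.068). For S100a4 the difference from wild type was 0.22 (SE 0.08, adjusted p = 0.079), with both rescue libraries above both wild-type libraries. For S100a13 the counts per 100 of S100a1 were 57.5 and 52.5 in the rescue, below the other libraries.

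The genes of S100 partners were read from lists. Beside the counts of each list below stand these shares of all genes tested. In the KO 23.5% were called lower and 23.2% higher. In the rescue over the KO 8.35% were higher and 5.88% lower. In the rescue against wild type 10.2% were higher and 12% lower. Of 11 tested annexin genes, 5 fell and 2 rose in the KO, with a median log2 fold change of -0.13. Anxa2, which encodes the partner of S100A10, fell from 2510 ± 22.2 to 1312 ± 64.4 CPM (-0.94, SE 0.12, adjusted p = 8.9e-05). Anxa1, whose protein binds S100A11, went from 841 ± 27.0 to 551 ± 35.2 CPM. Anxa4 fell by 0.91 (adjusted p = 3.4e-05), and Anxa11, a partner of calcyclin, rose by 1.81 (SE 0.16, adjusted p = 7.9e-06). Per length, S100a10 stood to Anxa2 as 0.525 and 0.537 (wild-type libraries), 0.695 and 0.765 (KO) and 0.697 and 0.624 (rescue). The ratio was higher in each KO and rescue library than in either wild-type library. In the rescue over the KO 2 annexin genes rose and 3 fell, among them Anxa11 (-1.05, adjusted p = 0.0026), Anxa8 (-0.61) and Anxa13 (-0.85). With a wild-type library, a KO library or the second rescue library left out, none was called higher there; 5 were without the first rescue library, and 1 in all was called without the second KO library. Against wild type 4 were lower in the rescue and 1 higher, or 3 and 0 without the first wild-type library.

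The S100A10-annexin A2 tetramer binds plasminogen and its activator tPA at the cell surface. The plasminogen gene Plg was listed too, but it had no counts in any library and was not tested. Of 6 tested genes around that activity, Anxa2 included, 5 fell in the KO and none rose, with a median of -1.08. Plat, which encodes tPA, fell from 339 ± 12.3 to 99.7 ± 0.14 CPM (-1.77, SE 0.13, adjusted p = 2.2e-06). Plaur, the urokinase receptor gene, fell from 143 ± 3.45 to 61.3 ± 0.18 CPM (-1.22, SE 0.09, adjusted p = 1.9e-06). Ctsb, a cathepsin gene, was the member not called (0.06). In the rescue over the KO 4 rose, Plaur by 0.59 (adjusted p = 0.0030), Plau by 0.77 and Plat by 0.55 among them. That count was 2 with KO library 1 left out, and 1 with KO library 2 or rescue library 2 left out. Plat (-1.22), Plaur (-0.63) and Anxa2 (-0.59) were the 3 called lower in the rescue against wild type.

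Among 6 S100 receptor genes, Alcam and Bsg fell in the KO and none rose, with a median of -0.53. Bsg, which encodes basigin, fell from 1869 ± 195 to 726 ± 21.8 CPM (-1.36, SE 0.16, adjusted p = 5.2e-05) and Alcam from 394 ± 19.2 to 195 ± 9.54 (-1.01, SE 0.09, adjusted p = 1.2e-05). The RAGE gene Ager was near the limit of detection, at 2.56 ± 0.26 CPM in wild type, and Tlr4, at 41.4 ± 3.48 CPM, was not called in the KO (0.24, adjusted p = 0.098). Without the first rescue library 3 receptor genes were lower and 1 higher in the KO. In the rescue over the KO both Bsg (0.83) and Alcam (0.38) rose, and no receptor gene was called there without either KO library. Without the first rescue library 3 were higher and 1 lower there, and 1 was higher without a wild-type library or the second rescue library. Both were still below wild type, at -0.54 and -0.63, and 1 receptor gene was called lower there without either wild-type library, against 4 without the second rescue library.

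Intracellular S100 partners showed no common direction in the KO: of 12 tested, 4 rose and 3 fell, with a median of 0.01. Myh9, the myosin heavy chain bound by S100A4, fell from 4846 ± 774 to 2690 ± 243 CPM (-0.85, SE 0.15, adjusted p = 6.8e-04), and so did Ppfibp1, the gene of another S100A4 partner (-0.73, adjusted p = 1.3e-04). Ppp5c, a phosphatase gene, rose by 0.72 (adjusted p = 6.7e-04), and Cacybp, named for the calcyclin it binds, by 0.71. In the rescue over the KO 4 rose, Myh9 by 0.58 and Ahnak by 0.54, and 1 fell; none was called without either KO library or without the second rescue library, and 3 rose without either wild-type library. Against wild type 1, Myh10, was higher (0.61, adjusted p = 7.5e-04) and 1 lower. Without the second rescue library 3 were higher and 2 lower, and without any other single library 1 in all was called. Of the genes of FGF1 release listed with S100a13, Sphk1 fell in the KO (-0.65, adjusted p = 0.0038) and Fgf1 was lower in the rescue than in the KO (-0.94, adjusted p = 0.035).

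Other EF-hand genes gave a comparison within the calcium sensors. Of 27 tested, 8 fell and 6 rose in the KO, with a median of -0.13, against 7 falls and 1 rise among the 8 S100 members. Over all genes tested 23.5% were called lower and 23.2% higher, so the EF-hand counts were near that background. Chp1 (-0.69, adjusted p = 1.2e-04), Hpcal1 (-0.58) and Nucb2 (-0.53) had the smallest adjusted p. In all 4 to 6 were called when a wild-type or KO library was left out. In the rescue over the KO 1 rose and 2 fell, the latter being Ncald (-0.84) and Cib1 (-0.42), and against wild type 6 were lower and 1 higher. With 1 of the libraries left out these counts ran from 0 to 6 over the KO and from 2 to 7 against wild type.

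S100a4 is often read as a mesenchymal gene, so a list of epithelial and mesenchymal genes was set beside it. Of 13 tested, 10 fell and 1 rose in the KO, with a median of -0.51, and the falls took in both kinds. The epithelial keratin genes Krt18 (-0.89, adjusted p = 3.2e-05) and Krt19 (-0.95) fell, as did the mesenchymal genes Zeb1 (-0.72, adjusted p = 1.9e-04) and Vim (-0.30). The gene that rose was the epithelial junction gene Ocln (0.65, adjusted p = 0.016). Grhl2 and Snai2 were not called. In the rescue over the KO 4 rose, Krt18 (0.59) first, and 2 fell, the junction genes Cdh1 (-0.78) and Ocln (-0.79). Without the second KO library none of these was called, and without either wild-type library or the first KO library 3 were. Against wild type 4 were lower in the rescue, Cdh1 by the most (-1.66, SE 0.16, adjusted p = 3.0e-05), and 1 was without either wild-type library.

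**Figure D5:**
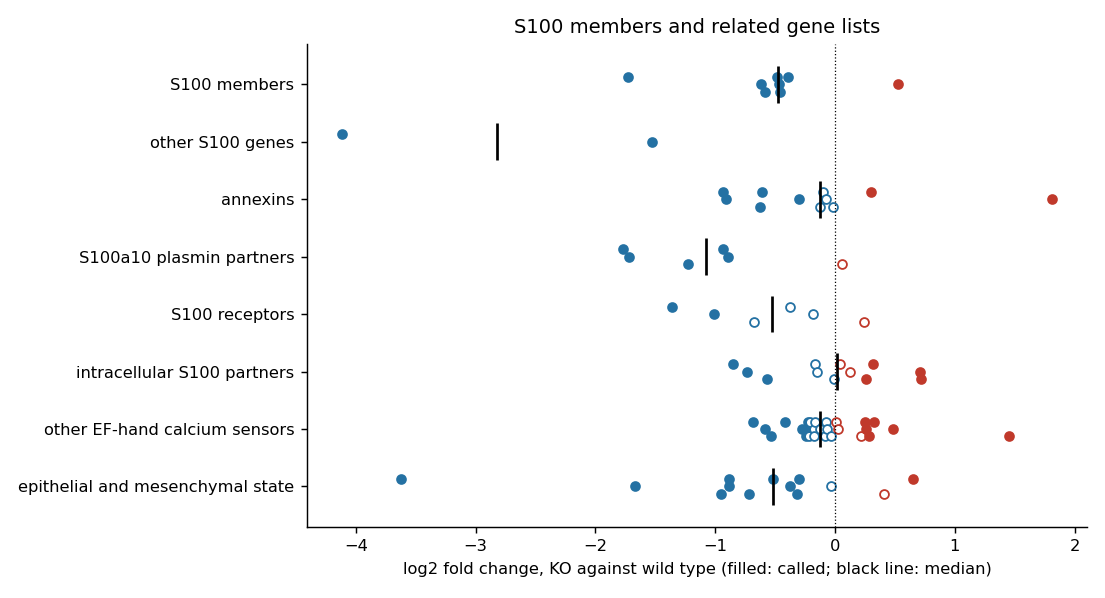
Log2 fold change in the KO against wild type (x axis) of the tested genes of each list, red where higher and blue where lower, filled where called, with the median as a black line. The S100 members lie left of 0 except S100a4, and the annexins and intracellular partners lie on both sides.

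The genes most like each member over the 6 libraries were found among 10025 protein-coding genes with a mean of at least 5 CPM, by the root mean square distance between log2 CPM profiles centred on their means. For S100a4 these were Snf8 and Nelfcd, at 0.033 and 0.038, and for S100a10 Snx13 and Cmtm6, at 0.022 and 0.025. S100a1 was nearest to Igf2r and Rhou, S100a11 to Parp8 and Itm2b, and S100a13 to Plppr3 and Spry1. Spint2 was among the nearest to both S100a6 (0.047, after Anks1b) and S100a16 (0.048, before Prrx2). S100a14, at low counts, had no close match, with Slc39a4 at 0.180 and Traf1 at 0.229. Among the members, S100a6 and S100a16 were the most alike pair at 0.087, and S100a4 was at least 0.413 from every other member. S100a14 stood further apart still, at least 0.525 from every other member.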

How the data were processed

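RNA-seq of 6 KP2 cell libraries was analysed from gene tables, 1 per library. Per the file headers, the deposited tables hold counts, CPM and RPKM of 41388 genes. The submitters' processing notes list bcl2fastq, STAR 2.0.4b, Subread, featureCounts 1.45 and GRCm38. The strand setting is not given in the sources used. The same holds for the annotation release. Each CPM value equals its count over the column total, rescaled (largest difference 3.3e-11). The authors' RPKM, that CPM per kilobase of listed gene length (largest difference 8.0e-11), is used where levels of different genes are compared. Symbols came from GENCODE M21 for 40254 identifiers.

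The counts were tested with edgeR 4.0.16 in R 4.3.3. Genes were filtered with filterByExpr (minimum count 10, minimum total 15), scaled by TMM and fitted with the quasi-likelihood test on the 6 libraries together, which leaves 3 residual degrees of freedom beside the group means. Benjamini-Hochberg adjustment ran over all 12339 genes tested, and a gene was called at an adjusted p under 0.05. Every adjusted p in the text comes from this fit unless another is named. The standard error (SE) is the log2 fold change over the root of the F statistic. Normalised CPM uses TMM-scaled library sizes. Alternatives were other scalings, filters, fits and DESeq2 1.42.0, and leaving out each library. The edgeR code was tested on simulated data.

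The members and gene lists were chosen with earlier results of these data known. Named genes are the members, up to 3 called genes per list and comparison, taken by smallest adjusted p, the 2 genes most like each member, the tested genes next to the members, and the 3 neighbours with the smallest adjusted p. The other genes named with a value were chosen after their values were seen.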

Additional observations from a re-analysis of the deposited data

How the results depend on the processing

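The direction of each of the 8 members in the KO held in every alternative run that tested it. Of 331 alternative member fold changes over the 3 comparisons, 291 kept direction and side of the threshold, 28 lost their call, 8 gained one and 4 changed sign. The sign changes were in the rescue against the KO: S100a1 was at 0.0855 without KO replicate 2 and 0.0037 without rescue replicate 2, and S100a6 at 0.1173 and 0.0026. Over the libraries left out in turn, S100a1 ranged from -0.15 to 0.0855 and S100a6 from -0.28 to 0.12. S100a10 against wild type was not called with upper-quartile scaling, and S100a11 was called without the filter. The stricter filter removed S100a14, and DESeq2 gave no adjusted p for it in the rescue against the KO. In that comparison 11 alternatives gave a value for S100a14, against 14 for S100a16. S100a14 is the member that depth limits most. Except where given here, the cause of a change was not tested.

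The labels do not say whether a replicate number marks a shared culture or day. Correlations of same-numbered deviations were 0.037 for wild type and KO, -0.192 for KO and rescue, and -0.153 for wild type and rescue. With 2 libraries per group these values cannot tell whether the libraries are paired. With the replicate number as a block, 5203 genes were called in the KO against wild type, 1194 in the rescue against the KO and 2157 in the rescue against wild type, and 8, 0 and 5 members. In the rescue against the KO the block gave an adjusted p of 0.064 for S100a4 and 0.052 for S100a13. Under this block the lists gave 9 EF-hand genes in the KO. In the rescue against the KO they gave 3 intracellular partners and 3 epithelial or mesenchymal genes, and against wild type 1 intracellular partner and 4 EF-hand genes. With the rescue numbers crossed, an alternative chosen after seeing the data, 6180, 2560 and 3314 genes were called, with 11 epithelial or mesenchymal genes in the rescue against the KO and 4 intracellular partners against wild type.

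The list counts under other settings were also chosen after seeing the data. DESeq2 called 1090 genes and 1 member in the rescue against the KO, with 3 intracellular partners and 1 EF-hand gene. It called 1718 genes and 1 receptor gene in the rescue against wild type, and 9 EF-hand genes in the KO. A fit to the compared groups alone called 4 receptor genes in the KO. In the rescue against the KO it called 1044 genes, 0 members, 3 annexins, 3 intracellular partners and 3 epithelial or mesenchymal genes. Against wild type it called 1 intracellular partner and 4 EF-hand genes, and no filter gave 4 intracellular partners. 

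Leaving out each library in turn gave 3693 to 6668 genes in the KO, 203 to 3445 in the rescue against the KO and 1108 to 3652 against wild type. Members called ran from 7 to 8, from 0 to 3 and from 4 to 6 in that order of comparisons. The ranges were 5 to 7, 1 to 8 and 3 to 6 for annexins, 2 to 4, 0 to 4 and 1 to 4 for receptors, and 5 to 5, 1 to 5 and 3 to 4 for plasmin partners. They were 5 to 7, 0 to 7 and 1 to 5 for intracellular partners, 4 to 17, 0 to 6 and 2 to 7 for EF-hand genes, and 8 to 11, 0 to 9 and 1 to 6 for epithelial and mesenchymal genes.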
